A study of Mus musculus with 2 samples.

Results

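The interleukin and interleukin receptor genes were examined in TCRαβ+CD8αα+ intraepithelial lymphocytes (IELs) of the small intestine of *Rbpj*-deficient and control mice. The members were the gene probes on both arrays whose RefSeq accession gives a symbol starting with Il and a digit, *Il34* included. *Il2ra*, *Il2rb*, *Il2rg*, *Il7r*, *Il15* and *Il15ra* were left out by this rule. It found 75 genes, measured by 90 probes, of 20887 named genes. The members and the lists below were chosen by name, with earlier results of these data known.

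The array called Control held RNA of cells labelled Rbpjf/f, and the array called RFF4 held RNA of cells labelled CD4-Cre Rbpjf/f, both from C57BL/6 mice of both sexes at 8 to 12 weeks. The study's text describes the control animals as Rbpj+/+ mice that carry CD4-Cre, so the sources differ on the control. CD4-Cre deletes floxed alleles in T cells from the thymus onward, so other cells of the gut keep *Rbpj*. Cells were depleted of CD4+ and TCRγδ+ cells and sorted for TCRβ and CD8α without CD8β, and RNA from several isolations was pooled onto 1 array of 1 color per genotype. With 1 array per genotype there is no replicate check, no test across samples and no p-value, and the error given is technical. In RNA from many cells, fewer cells of a type and less RNA per cell cannot be told apart.

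Interleukins are secreted messengers of the immune system, and each acts through receptor chains on the target cell. Most receptors with the common gamma, common beta or gp130 chain signal through JAK kinases and STAT factors, as do those of the IL-10 and IL-12 families. Receptors of the IL-1 and IL-18 family signal through MyD88 and IRAK kinases, and those of the IL-17 family through the adaptor Act1. TCRαβ+CD8αα+ IELs sit between the epithelial cells of the gut, and IL-15 and its receptor, outside the set described here, are known to sustain them. RBPJ is the DNA-binding factor through which Notch receptors act on their target genes.

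RBPJ is known to bind the core letters TGGGAA, so the 250 bases before the start sites were read on both strands, where the opposite strand gives TTCCCA. Of the 75 members, 60 have an entry in the RefSeq table used (GRCm38.p6), with 74 start sites in all. The motif was present before 29 of the 74 start sites (39.2%), against 7094 of all 32851 (21.6%). Counted per gene, it was present in 25 of the 60 members with an entry (41.7%), against 6510 of all 27025 genes (24.1%). It was present in 1 of the 3 genes with an entry that were more than 2-fold lower on the array labelled RFF4, and in 5 of the 13 that were more than 2-fold higher. Among members with a difference within 2-fold it was present in 3 of 15 genes, and among those given no difference in 16 of 29. A match is a run of letters and not a binding site. Printed here are the 3 lowered receptor chains with an entry, the alpha chain *Il6ra* that pairs with *Il6st*, and the raised receptor genes *Il17rc* and *Il9r*, read 5′ to 3′ with the motif in capitals.
Il6st, chr13:112463820-112464069, plus strand: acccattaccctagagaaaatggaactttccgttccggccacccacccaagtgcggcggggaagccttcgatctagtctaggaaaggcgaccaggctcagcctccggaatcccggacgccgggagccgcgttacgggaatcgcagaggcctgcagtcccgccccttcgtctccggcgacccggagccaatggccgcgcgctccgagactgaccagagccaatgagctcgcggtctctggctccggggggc
Il11ra1, chr4:41762060-41762309, plus strand: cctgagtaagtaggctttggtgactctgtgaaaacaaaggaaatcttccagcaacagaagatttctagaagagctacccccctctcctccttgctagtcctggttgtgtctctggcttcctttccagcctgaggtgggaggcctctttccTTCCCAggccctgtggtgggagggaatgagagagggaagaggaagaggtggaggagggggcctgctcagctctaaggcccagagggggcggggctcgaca
Il20rb, chr9:100486474-100486723, minus strand: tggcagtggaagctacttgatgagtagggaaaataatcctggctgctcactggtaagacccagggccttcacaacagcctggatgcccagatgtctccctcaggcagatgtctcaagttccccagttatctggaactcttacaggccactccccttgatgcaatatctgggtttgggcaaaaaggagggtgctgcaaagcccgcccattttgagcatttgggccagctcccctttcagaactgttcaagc
Il6ra, chr3:89913197-89913446, minus strand: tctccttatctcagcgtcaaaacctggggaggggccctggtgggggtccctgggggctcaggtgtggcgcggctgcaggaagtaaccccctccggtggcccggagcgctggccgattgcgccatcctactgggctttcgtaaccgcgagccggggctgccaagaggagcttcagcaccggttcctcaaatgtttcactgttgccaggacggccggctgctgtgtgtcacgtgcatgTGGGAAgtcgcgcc
Il17rc, chr6:113471205-113471454, plus strand: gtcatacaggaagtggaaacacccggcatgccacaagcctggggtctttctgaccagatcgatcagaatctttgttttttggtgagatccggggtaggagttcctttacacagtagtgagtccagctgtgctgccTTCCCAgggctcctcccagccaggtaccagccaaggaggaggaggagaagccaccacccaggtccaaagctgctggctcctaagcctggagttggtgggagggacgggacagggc
Il9r, chr11:32200280-32200529, minus strand: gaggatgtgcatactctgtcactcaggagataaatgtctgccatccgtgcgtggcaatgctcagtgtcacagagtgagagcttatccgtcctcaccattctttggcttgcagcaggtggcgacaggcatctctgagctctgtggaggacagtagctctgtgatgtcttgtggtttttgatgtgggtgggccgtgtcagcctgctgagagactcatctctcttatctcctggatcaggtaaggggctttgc
The match begins at position −100 before the second of the 2 start sites of *Il11ra1*, with none before the other. It begins at −115 in *Il17rc* and at −14 in *Il6ra*, counted from the start site. The letters TGGGAA are in neither direction within these windows of *Il6st*, *Il20rb* and *Il9r*.

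Levels are log2 scanner signals minus the 75th percentile of the gene spots on the same array, so a level of 0 is that percentile. Differences are log2 values of RFF4 minus Control. The scanner software marks spots well above background, and a gene was given a difference if its brightest such probe was marked on at least 1 array. If it was marked on only 1 array, the difference is a bound against the signal of the other array or its lowest reliable signal, whichever is higher, and none is given where that bound is under 1-fold. Each array held 59305 gene spots, of which 57.2% were well above background on the Control array and 49.7% on the array labelled RFF4. No spot was saturated (0 on both arrays), and both arrays shared a slide and a scan. The SD of a difference from repeated spots was 0.09 for probes at a mean level of −2 or higher and 0.29 for dimmer ones.

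The targeted gene does not check the labels here. The brighter *Rbpj* probe had a level of 1.96 on the Control array and 2.28 on the array labelled RFF4, and the other probe had −1.44 and −0.61. The position of the probes against the floxed exons is not stated in the files, so they bear neither way on the deletion. T cell genes were present on both arrays, with *Cd3e*, a chain of the T cell receptor complex, at 8.10 and 8.44 and *Cd8a* at 6.25 and 6.17. *Cd4* was at 1.67 and 1.80. *Cd8b1* was at −3.52 on the Control array and not well above background on the other. *Foxp3*, the factor of regulatory T cells, was dim at −5.02 and −3.81, a difference of 1.20, and *Cd40lg*, a marker of helper T cells, was not well above background on either array.

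Of the 75 members, 47 were well above background on the Control array and 38 on the array labelled RFF4. Both arrays measured 36 of them, 11 were reliable on the Control array alone, 2 on the other alone and 26 on neither. Over all 20887 genes the same counts were 12955, 1120, 156 and 6656, and the lowest reliable level was −5.51 on the Control array and −4.29 on the array labelled RFF4. A difference could be given for 41 members, 36 measured and 5 bounds. The other 8 members reliable on 1 array were all reliable on the Control array, at levels below the lowest reliable level of the other. Of 34 receptor genes, 26 were well above background on the Control array and 25 on the other. Of 35 ligand genes, 17 and 10 were, and of all 20887 genes, 14075 and 13111. The 6 remaining members are neither, such as the binding protein *Il18bp* and the antagonist *Il1rn*.

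**Figure D1:**
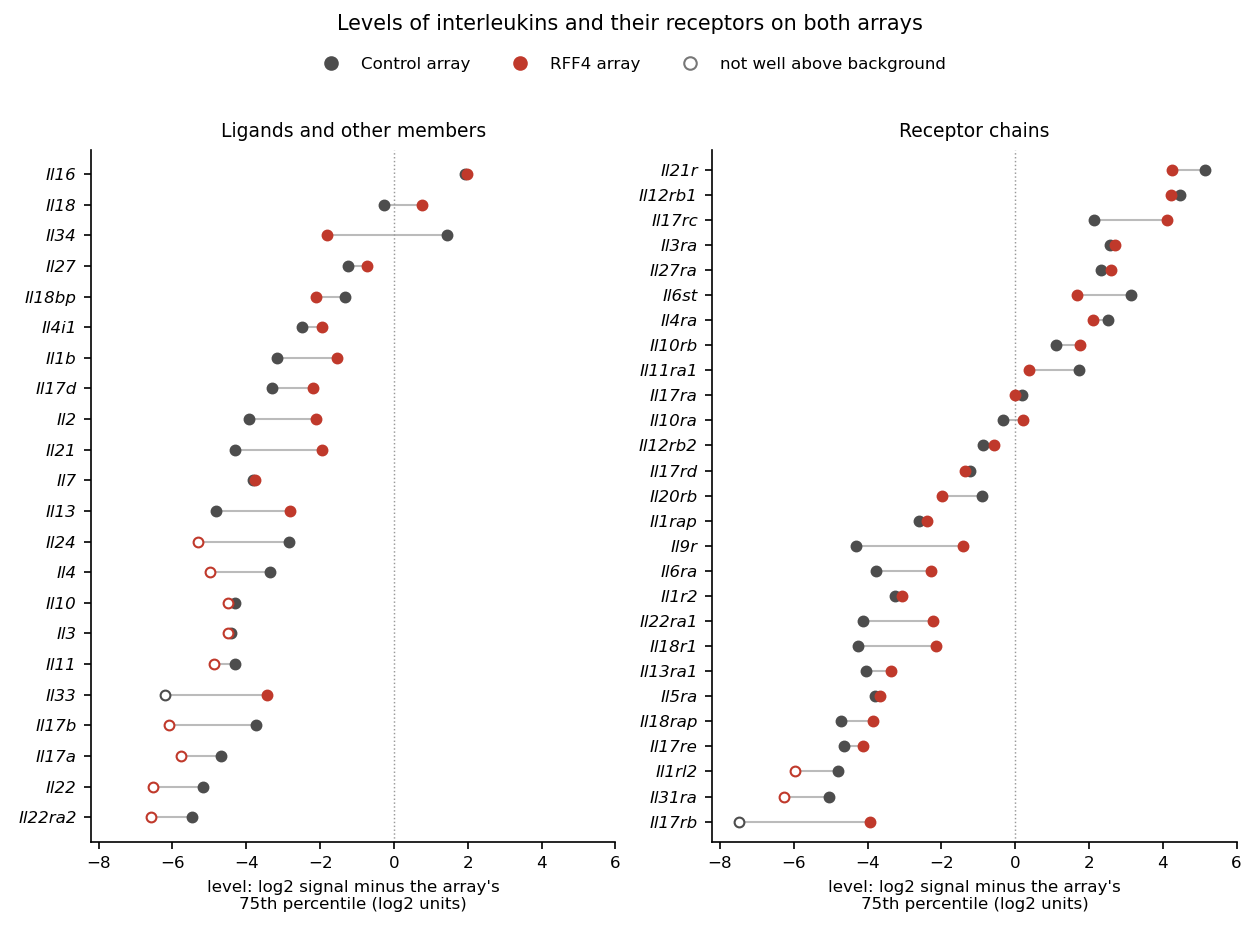
Levels of the 49 members well above background on at least 1 array, with ligands and other members on the left and receptor chains on the right. Each gene has a point for the Control array (grey) and one for the array labelled RFF4 (red), open where the signal was not well above background, and the dotted line is the array's 75th percentile. *Il34*, *Il6st* and *Il11ra1* lie to the left on the array labelled RFF4, while *Il9r*, *Il21* and *Il17rc* lie to the right. Positions of different genes are not comparable, since each probe has its own brightness.

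More than 2-fold lower on the array labelled RFF4 were 5 of the 41 members (12.2%), where 5.05% of all 13513 named genes with a difference were. More than 2-fold higher were 13 of the 41 (31.7%), where 12.3% of all genes were. The median difference was 0.30 over the members and −0.01 over all genes. These counts depend on the scaling and on the bounds. Equal spike-in controls gave 17 lower and 3 higher members with a median of −0.76, and plain ratios, which take in the 8 members without a difference, gave 12 lower and 13 higher. Most of the higher members were dim. Below a mean level of 0, 11 of 29 members (37.9%) were more than 2-fold higher and 3 (10.3%) were lower, beside 21% and 6.62% of all genes at that level. At a mean level of 0 or higher, 2 of 12 members (16.7%) were higher and 2 were lower, beside 6.58% and 4.02% of all genes. These shares describe the 2 arrays and are no test.

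The lower members were 2 ligands and 3 receptor chains. *Il34*, a ligand of the macrophage growth factor receptor CSF1R, had the largest difference of the members measured on both arrays. Its unscaled signal was 1369 on the Control array and 64.7 on the array labelled RFF4, which gives levels of 1.43 and −1.81. The difference was −3.23 (technical SE 0.21), 9.40-fold lower, and placed *Il34* at rank 9 from the lowest of the 13513 genes with a difference. In this and later ranks a bound counts at its least size. *Il34* was thus above the 75th percentile of the Control array and below that of the other. The gene of its receptor, *Csf1r*, differed the other way, with levels of 0.01 and 1.46.

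*Il24*, a cytokine of the IL-10 family, had a level of −2.84 on the Control array and was not well above background on the other, where its signal was 5.73 against 71.3. It was at least 2.75-fold lower. *Il20rb*, a chain of the receptors that bind IL-19, IL-20 and IL-24, had levels of −0.91 and −1.98, a difference of −1.07 (technical SE 0.21). With normexp background correction it lay within 2-fold, at −0.64, and no difference could be given for *Il24*. *Il20rb* and its ligand *Il24* were thus both lower, while the partner chain *Il20ra* and the other ligands *Il19* and *Il20* were not above background on either array. The other partner chain of *Il20rb*, *Il22ra1*, was higher and is given below.

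*Il6st* encodes gp130, the signaling chain shared by the receptors for IL-6, IL-11, IL-27 and LIF. Its level was 3.13 on the Control array and 1.67 on the array labelled RFF4, a difference of −1.46 (technical SE 0.20), 2.74-fold lower. *Il11ra1*, the chain that binds IL-11 and pairs with gp130, had levels of 1.73 and 0.38, a difference of −1.35 (technical SE 0.21). Both were lower, and both stayed above the 75th percentile of each array. A near-identical copy of *Il11ra1* is known in mice, *Il11ra2*, and whether the probe reads both was not checked. The other chains among the members that pair with gp130, *Il6ra* and *Il27ra*, did not share this direction. *Il6ra*, the chain that binds IL-6, was dim on both arrays, at −3.77 and −2.28, and 2.82-fold higher on the array labelled RFF4. *Il27ra*, the chain that binds IL-27, had levels of 2.33 and 2.58, within 2-fold. The ligand *Il6* was not above background on either array, *Il11* was on the Control array alone, and *Il27* had levels of −1.25 and −0.74.

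The 13 higher members were 7 ligands and 6 receptor chains, with 11 measured on both arrays and 2 given as bounds. Of the 13, 11 were below the 75th percentile on both arrays and had an unscaled signal under 60 on the Control array. The exceptions were *Il17rc* and *Il18*. The unscaled signal, too, was higher on the array labelled RFF4 for 11 of the 13. It was not for *Il18*, at 425 and 384, and *Il17d*, at 51.6 and 49.1, whose positive differences rest on the scaling. Of the 11 measured on both arrays, only *Il9r*, at 25.6 and 84.7, and *Il21*, at 25.7 and 58.7, were past 2-fold before scaling.

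*Il17rc*, which pairs with IL-17RA to bind IL-17A and IL-17F, was above the 75th percentile of both arrays. Its unscaled signal was 2246 on the Control array and 3954 on the array labelled RFF4, with levels of 2.14 and 4.13. The difference was 1.99 (technical SE 0.20), 3.96-fold higher, and its second probe gave 1.94. Its partner *Il17ra* did not share this, at 0.18 and −0.01. *Il17rb*, which binds IL-25, was not well above background on the Control array and had a level of −3.93 on the other, at least 2.98-fold higher, but its other probe was not above background on either array. *Il17d*, a cytokine of the same family, had levels of −3.30 and −2.20, 2.14-fold higher, and its other probe gave a difference of 1.12. It lay within 2-fold with median scaling, at 0.92, and with normexp background correction, at 0.95. *Il17rd* and *Il17re* lay within 2-fold. Of the ligands, *Il17a* and *Il17b* were reliable on the Control array alone, with levels of −4.70 and −3.75, and *Il17c*, *Il17f* and *Il25* on neither.

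Among the cytokines and receptors of the common gamma chain group, *Il9r*, the receptor chain for IL-9, had the largest difference. Its unscaled signal was 25.6 on the Control array and 84.7 on the array labelled RFF4, with levels of −4.32 and −1.42. The difference was 2.90 (technical SE 0.25), 7.44-fold higher, and rank 40 from the highest of the 13513 genes with a difference. Its second probe, well above background on the array labelled RFF4 alone, differed by 1.34 as a plain ratio. The mean of both probes gave 2.12. The ligand *Il9* was not above background on either array. *Il21*, a cytokine of helper T cells, had levels of −4.31 and −1.95, 5.14-fold higher. *Il2*, the T cell growth factor, had levels of −3.93 and −2.12, 3.51-fold higher. *Il2* and *Il21* are neighbors in the RefSeq gene order with no coding gene between them, and both were higher. *Il13* and *Il4* are neighbors in the same way, and their values point in opposite directions. *Il13*, a type 2 cytokine, had levels of −4.83 and −2.83, rank 250 from the highest of the genes with a difference. *Il4*, measured by 10 spots, had a level of −3.36 on the Control array and was not well above background on the other, at least 1.90-fold lower.

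The receptor chains *Il21r* and *Il4ra* were above the 75th percentile on both arrays and within 2-fold. *Il21r* had levels of 5.14 and 4.24, a difference of −0.90 (technical SE 0.20), the member measured on both arrays that lay closest below the 2-fold limit on the lower side. *Il20rb* was the closest past it. Scaling to the median, which moved all genes by −0.17, is enough to take *Il21r* past the limit. *Il4ra*, which serves IL-4 and IL-13, had levels of 2.52 and 2.10, and its other probe gave −0.28 where the brighter gave −0.42. *Il13ra1* was dim, at −4.05 and −3.37, and *Il13ra2* was not above background on either array. The T cell survival factor *Il7* had levels of −3.83 and −3.76.

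In the IL-1 and IL-18 family, 8 of 21 members had a difference, of which 4 were more than 2-fold higher and 0 lower. Of all genes 12.3% were higher and 5.05% lower, and of those below a mean level of 0, 21% and 6.62%. *Il1b*, the inflammatory cytokine IL-1β, was measured by 10 spots and had levels of −3.18 and −1.54, a difference of 1.64 (technical SE 0.07). *Il33*, an alarmin of barrier tissues, was well above background only on the array labelled RFF4, at −3.44, and was at least 4.19-fold higher. *Il18*, a cytokine matured by the inflammasome, had levels of −0.26 and 0.76, a difference of 1.02, just past the limit. It lay within 2-fold, at 0.84, both with median scaling and with normexp background correction. *Il18r1*, the chain that binds IL-18, had levels of −4.26 and −2.15, a difference of 2.11 (technical SE 0.27), and its other probe was not above background on either array. Its neighbor and partner chain *Il18rap* was at −4.71 and −3.86, a difference of 0.85 (technical SE 0.40), the closest of the members short of the limit on the higher side. The inhibitor *Il18bp*, which binds free IL-18, had levels of −1.33 and −2.11, within 2-fold at −0.79. *Il1a*, *Il1rn*, *Il1r1* and *Il1rl1*, the receptor for IL-33, were not above background on either array. *Il1r2* and *Il1rap* were dim and within 2-fold, and *Il1rl2*, the receptor for the IL-36 cytokines, was reliable on the Control array alone. Those cytokines, which the RefSeq table names *Il1f6*, *Il1f8* and *Il1f9*, were not above background on either array, nor were *Il1f5*, *Il1f10*, *Il1rapl1*, *Il1rapl2* and the antisense transcript *Il1bos*.

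*Il22ra1*, the receptor chain for IL-22 that epithelial cells are known to carry, had levels of −4.13 and −2.24, a difference of 1.89 (technical SE 0.27). Its other probe was not above background on either array. The IL-22 ligand and its soluble inhibitor *Il22ra2* were reliable on the Control array alone, at −5.18 and −5.46, below the lowest reliable level of the other array, so no difference is given. *Il10ra* and *Il10rb*, the chains of the IL-10 receptor, had differences of 0.57 and 0.65, and *Il10* itself was reliable on the Control array alone.

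Of the receptor chains of the IL-12, IL-3 and IL-5 group among the members, those with a difference lay within 2-fold. *Il12rb1*, the chain shared by the IL-12 and IL-23 receptors, had levels of 4.48 and 4.21, and *Il12rb2* had −0.88 and −0.58. *Il23r* and the ligand genes *Il12a* and *Il23a* were not above background on either array. *Il3ra* had levels of 2.56 and 2.70 and *Il5ra* had −3.81 and −3.66. Of their ligands, *Il3* was reliable on the Control array alone and *Il5* on neither. *Il16*, a chemoattractant for CD4+ cells, had levels of 1.94 and 1.99, and *Il4i1*, a secreted amino acid oxidase, had −2.49 and −1.95. *Il31ra*, the receptor for IL-31, was reliable on the Control array alone, and *Il31* on neither.

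**Figure D2:**
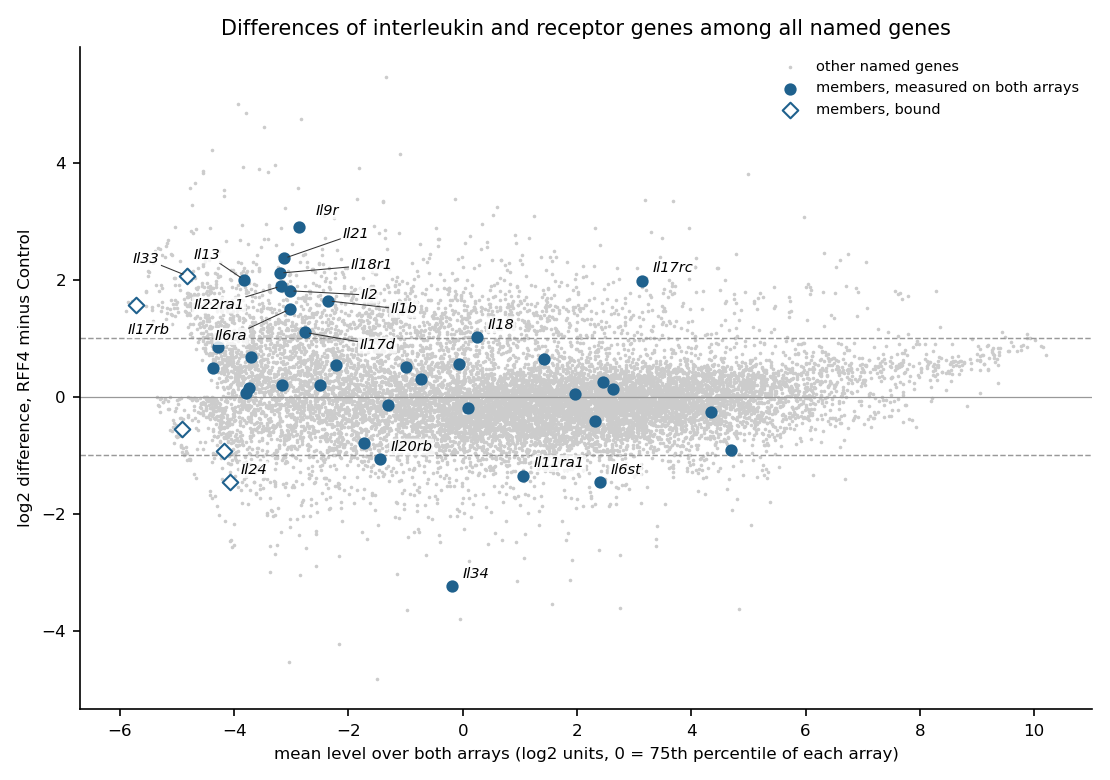
Log2 difference (RFF4 minus Control) against the mean level over both arrays for every named gene with a difference. Blue circles are members measured on both arrays, open diamonds are members given as bounds, grey points are the other genes, and the dashed lines mark 2-fold. The 13 higher members gather at low mean levels apart from *Il17rc* and *Il18*, and *Il34* lies at −3.23, rank 9 from the lowest.

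Genes that act below these receptors were listed by name. All 18 genes of the JAK and STAT list were measured, and 0 were past 2-fold in either direction, with differences from −0.99 to 0.83 and a median of −0.28. The shares beside this list and the next are 5.05% lower and 12.3% higher of all genes. At a mean level of 0 or higher they are 4.02% and 6.58%. Of 15 genes of MyD88 and IL-17 receptor signaling, 1 was more than 2-fold lower and 0 higher, with a median of −0.25. This was *Irak3*, an inhibitory kinase of the IL-1 receptor pathway, which had a level of −1.99 on the Control array and was at least 4.95-fold lower on the other, where it was not well above background. A further list held 13 subunits of cytokines and their receptors with other names, of which 10 had a difference. Most pair with members, but *Csf2ra*, *Ifngr1* and *Ifngr2* do not, and *Crlf2* pairs with *Il7r*, which the rule left out. Of the 10, 5 were more than 2-fold higher and 0 lower, with a median of 0.99, beside 12.3% and 5.05% of all genes and 21% and 6.62% of those below a mean level of 0. *Ebi3*, the partner of IL-27, had levels of −4.48 and −3.21. *Csf2rb2*, the IL-3 receptor beta chain, had −3.41 and −2.31, and *Ifnlr1*, which pairs with IL-10RB, had −3.53 and −2.33. *Ifngr2*, a chain of the interferon-γ receptor, had −0.13 and 1.21, and *Csf1r* is given above. The signaling genes therefore lay nearer to the median of all genes than these subunits did.

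Most measured markers of other cell types differed in the same direction as the 13 higher members. Their counts stand beside the 12.3% of all genes that were more than 2-fold higher. That share was 21% below a mean level of 0 and 6.58% at 0 or higher. Each of the 15 listed markers of intestinal epithelial cells was reliably detected on both arrays and higher on the array labelled RFF4, with 13 more than 2-fold higher, with a median of 1.59. *Vil1*, a protein of the brush border, had levels of 2.73 and 4.53, and *Epcam* had 1.86 and 2.26. The summed level of the epithelial list was 7.79 on the Control array and 9.40 on the other. Of the 13 macrophage and dendritic cell markers on the arrays, 11 had a difference and 8 were more than 2-fold higher. Only *Mrc1* was not well above background on either array. The summed levels were 6.08 and 6.58, and most of both sums came from *Itgax* and *Itgam*. *Itgax* had levels of 5.5 and 5.7 and *Itgam* 4.3 and 5.2, both within 2-fold. *Lyz2*, the macrophage lysozyme, had levels of −3.67 and −1.25, whereas *Zbtb46*, a factor of dendritic cells, differed by −0.48. Of 8 mast cell markers, 7 had a difference and 5 were more than 2-fold higher, with summed levels of 3.64 and 4.02. Their proteases *Mcpt1* and *Mcpt2* had levels of −0.17 and −0.90 on the Control array and 2.25 and 1.76 on the other. *Kit*, at 3.32 and 1.86, differed by −1.46 and made up most of the mast cell sum on the Control array. *Ms4a2* was not well above background on either array. B and plasma cell markers summed to 4.78 and 5.93, with *Cd79a* and *Pax5* not well above background on either array. Of the 5 with a difference 4 were more than 2-fold higher, and *Cd79b* differed by −0.26. Stromal and endothelial markers summed to 0.30 and 1.01, with *Lum*, *Pdgfra*, *Cdh5* and *Vwf* not well above background on either array. Of their 5 with a difference 2 were more than 2-fold higher, and the endothelial marker *Pecam1* was more than 2-fold lower, at −1.03, and *Col1a1* differed by −0.16. Tuft cell markers summed to −1.49 and −0.23, with *Pou2f3* and *Gfi1b* not well above background on either array. Of their 3 with a difference 2 were more than 2-fold higher. The 10 T cell markers on the arrays had a median difference of 0.32 and summed to 10.2 and 10.6, with *Cd2* alone past 2-fold. The part of these cells in the differences of *Il1b*, *Il18*, *Il33*, *Il22ra1*, *Il17rc*, *Il9r* and *Il13* was not tested.

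**Figure D3:**
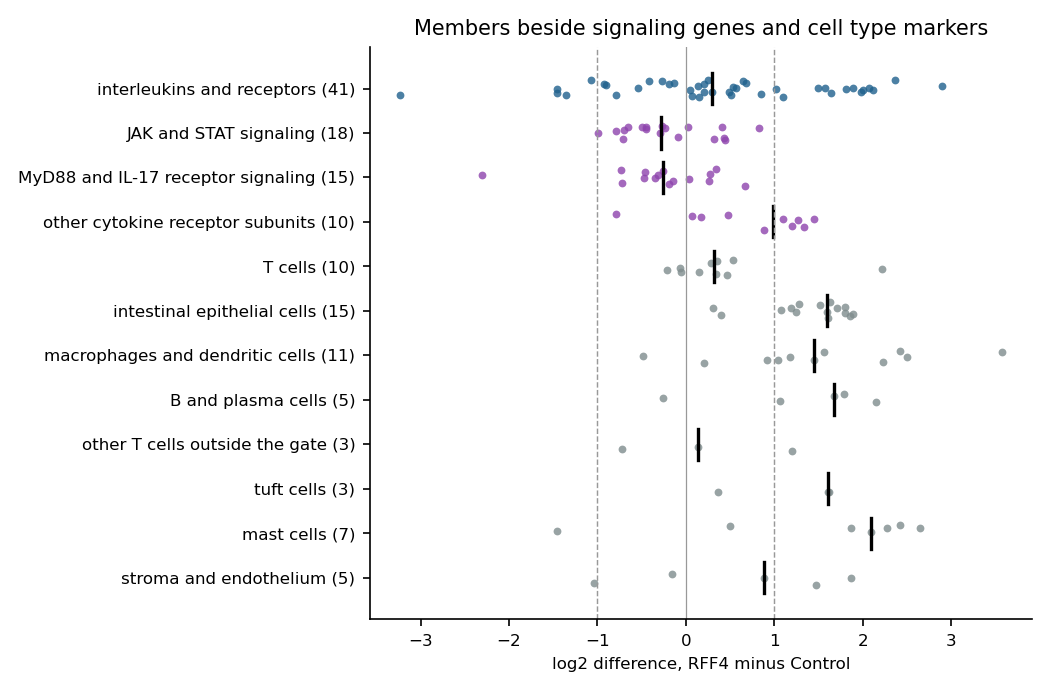
Log2 difference (RFF4 minus Control) of each gene with a difference, for the members (blue), the 3 lists of signaling genes and receptor subunits (purple) and the 8 lists of cell type markers (grey). The number of genes is in brackets, black bars are medians, dashed lines mark 2-fold and vertical scatter has no meaning. The epithelial median lies at 1.59, the median of the members at 0.30 and that of the JAK and STAT genes at −0.28. *Csf1r* appears in 2 lists.

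The differences are relative to each array's own 75th percentile. With the 8 spike-in controls set equal instead, the median difference of all genes moved by −1.07 and 55.6% of genes were more than 2-fold lower, against 1.46% higher. The 3 members still more than 2-fold higher in that setting were *Il9r*, *Il21* and *Il18r1*. With normexp background correction *Il34* was at −2.62, *Il9r* at 1.84, *Il21* at 1.52, *Il18r1* at 1.45, *Il13* at 1.20 and *Il33* at 1.18, each more than 1.5 times nearer to 1-fold. Scaling to the median moved all genes by −0.17. Higher genes made up 70.9% of all calls with the 75th percentile and 54.8% with the median. Of the 18 members past 2-fold, 6 were so in the same direction in all 11 alternative settings. These were *Il34*, *Il6st* and *Il11ra1* on the lower side and *Il9r*, *Il21* and *Il18r1* on the higher. Settings that change only the filter, the bounds or the probe choice cannot move a gene with 1 probe measured on both arrays. For *Il34*, *Il6st*, *Il11ra1* and *Il21* part of this agreement was therefore fixed in advance.

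**Figure D4:**
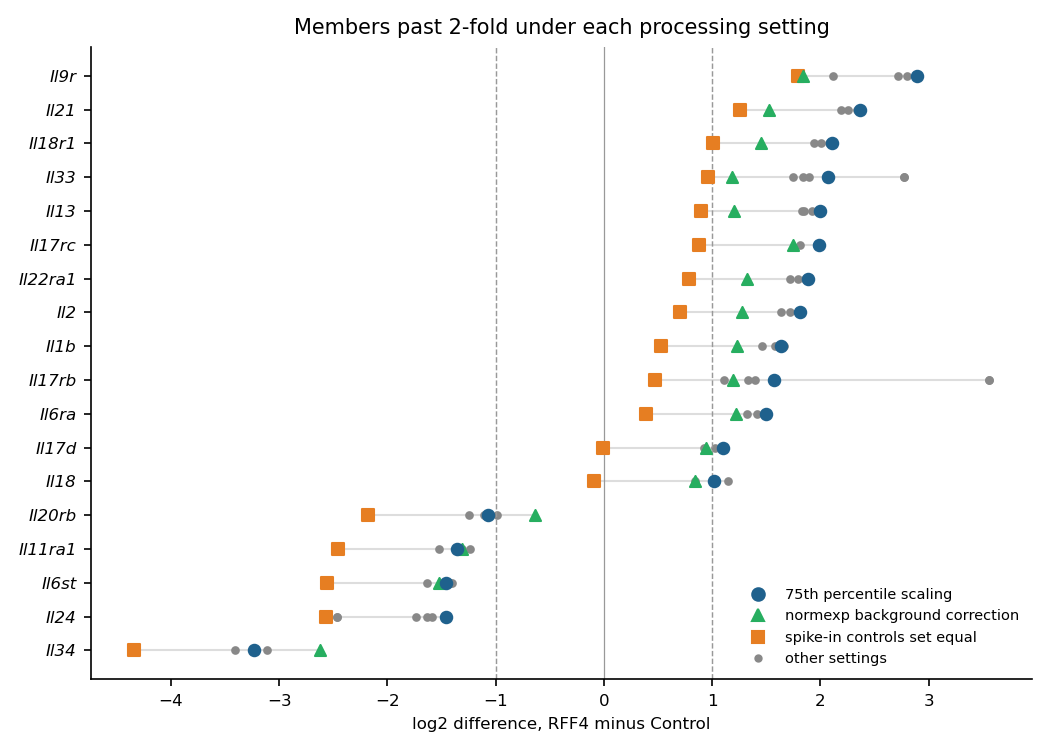
Log2 difference (RFF4 minus Control) of the 18 members past 2-fold under each setting, with the main setting in blue, normexp background correction as green triangles, equal spike-in controls as orange squares and the other settings as grey points. Dashed lines mark 2-fold. *Il34* ranges from −4.34 to −2.62 and *Il9r* from 1.79 to 2.90, while *Il17d* and *Il18* reach −0.01 and −0.09 with equal spike-in controls.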

How the data were processed

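The authors pooled RNA of sorted cells per genotype and hybridized it to 1 Agilent SurePrint G3 Mouse GE 8x60K array of 1 color each. Per the file headers, the deposited intensity values are background-subtracted scanner signals of Agilent Feature Extraction 10.7.1.1, on a linear scale and not normalized between arrays. The deposited normalized table gives log2 values with each probe centered on 0, made by the authors in GeneSpring with settings not given in the sources used here. Outlier and control spots were left out, log2 signals were scaled to each array's 75th percentile over gene spots (8.99 for Control and 7.82 for RFF4), and spots of a probe were averaged. A probe was well above background where the scanner software marked 50% or more of its spots so. The brightest such probe stood for a gene. A bound compared the reliable signal with the other array's signal or with that array's lowest reliable signal, whichever was higher, and bounds under 1-fold were not given. Accessions were named through RefSeq (GRCm38.p6), which matched 27509 of 29150 probes that carry one. The array's design names another build, so no probe coordinates are given.

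Technical SE combined the error estimates of Feature Extraction, and the spot SD came from 237 probes spotted repeatedly. Neither covers biological variation. The members and lists were chosen with earlier results of these data known. Members past 2-fold and those at or above the 75th percentile are named with values, as are some defining markers. *Itgae*, *Cd68*, *Tcrg-C1*, *Trdc* and *Trgv7* were not analysed here, and the result of another listed marker is not reported here. The steps were tested on simulated data, with changes in bright genes only. The 11 alternatives were other scalings, background correction, probe choice, filters and the deposited table. The tools were R 4.3.3, limma 3.58.1, Python 3.11.15, pandas 2.3.3, numpy 2.4.6 and matplotlib 3.10.9.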

Additional observations from a re-analysis of the deposited data

How the results depend on the processing

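No paired analysis was possible because each genotype has 1 array, and for the same reason no array could be left out in turn. The 5 lower and 13 higher members became 17 and 3 with equal spike-in controls, 12 and 30 with no filter and no bound, and 12 and 13 with plain ratios. In the other settings the lower count lay between 4 and 7 and the higher count between 11 and 13. The median over the members, 0.30, became 0.053 with median scaling, −0.76 with equal spike-in controls, 0.63 with normexp, 0.15 with plain ratios and 0.57 with no filter. Without a filter, members at the scanner's floor on both arrays take a positive difference from the scaling alone. With equal spike-in controls *Il17d* and *Il18* turned to −0.008 and −0.087. Median scaling took *Il17d* and *Il18* within 2-fold, at 0.92 and 0.84. With normexp *Il20rb* was −0.64, *Il17d* 0.95 and *Il18* 0.84, and *Il24* had no difference. Cyclic loess also took *Il20rb* within 2-fold. In the lists of signaling genes and receptor subunits, 1 gene was lower and 5 were higher. Their counts in the other settings were computed after seeing the data. The lower count was 2 with median scaling and the deposited table, 26 with equal spike-in controls and 0 where both arrays had to be well above background, and the higher count was 0 with equal spike-in controls. Requiring all spots of a probe to be well above background left 47, 38 and 36 members on Control, RFF4 and both. Over all reliable spots the median signal was 9.47 times background on the Control array and 5.78 times on the array labelled RFF4. Dim probes had a larger SD between repeated spots, as given above. The causes of these shifts were otherwise not tested.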
